A study of Mus musculus with 12 samples.

Results

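Transcript levels of the oxysterol-binding protein family were followed in mouse liver across 12 RNA-seq libraries. The family is represented by 7 genes (Osbp, Osbpl1a, Osbpl2, Osbpl3, Osbpl8, Osbpl9 and Osbpl11), taken by gene name from the 11791 genes of the deposited table, and all 7 were present. Osbpl3 was chosen by its signal in this table, for its rise in the knockout, so its knockout values against control are a description with no test, and the other 6 genes were taken as its relatives. All animals were males with the strain label C57BL/6, were 10 weeks old and received for 3 weeks a diet lacking methionine and choline (MCD), which induces steatohepatitis in mice. Each library held liver RNA of 2 animals. Control pools (4) had the genotype Lyzs cre, a Cre recombinase under the lysozyme 2 locus that acts in myeloid cells. Knockout pools (KO, 4) had the genotype Lyzs cre p38g/d, a knockout of the stress kinases p38γ and p38δ in the cells that express this Cre. Anti-Ly6G pools (4) were Lyzs cre mice given an antibody to Ly6G, a neutrophil surface protein, and are titled GR1. Mitochondria of C57 origin are labelled for the 4 control pools, KO 1 and KO 2, and mitochondria of NZB origin for KO 3, KO 4 and the 4 anti-Ly6G pools. The protocol describes conplastic strains, which join the nuclear genome of one strain to the mitochondrial DNA of another.

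Oxysterol-binding protein and its relatives (ORPs) are lipid transfer proteins that work where membranes of different organelles come close to each other. A shared C-terminal domain holds a sterol or phosphatidylserine molecule and exchanges it for phosphatidylinositol 4-phosphate (PI4P), whose breakdown at the endoplasmic reticulum keeps the exchange going. Many ORPs are tethered to the endoplasmic reticulum by the VAP proteins and to a second membrane by a PI4P-binding domain. In liver cells they take part in moving cholesterol and phospholipids between the endoplasmic reticulum, the Golgi, endosomes, lipid droplets and the plasma membrane.

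Levels are a signal in RPM, reads scaled to an adjusted library size, given as mean ± SD over 4 pools, and depth was 13.1 to 22.3 M reads per pool (14.4 to 19.9 in control, 18.8 to 22.3 in KO and 13.1 to 21.0 in anti-Ly6G). Mapk12, which encodes p38γ, had a signal of 1.75 to 2.71 in the control pools, 1.63 to 3.06 in the KO pools and 1.54 to 1.86 after anti-Ly6G, and Mapk13, which encodes p38δ, is not analysed here. Whole liver consists mostly of cells in which this Cre does not act, so the level of Mapk12 does not test the deletion. All 8 hepatocyte genes examined were present, as the label of the tissue states. In whole tissue, fewer cells of a type and less RNA per cell cannot be told apart.

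Relative to its level, Osbpl3 had the widest range of the 7 genes, its highest pool being 3.58 times its lowest. The highest was a KO pool and the lowest a control pool, so this range follows in part from the choice of the gene. Osbpl3 encodes ORP3, which binds VAPA and the small GTPase R-Ras and takes part in cell adhesion. The gene lies on chromosome 6, 50293330 to 50456201 on the minus strand (GRCm38, GENCODE vM21). Its signal was 11.2, 13.9, 10.5 and 19.2 in control 1 to 4, and 23.3, 25.1, 37.4 and 35.3 in KO 1 to 4. It was 23.1, 30.3, 14.7 and 15.4 in anti-Ly6G 1 to 4. Every KO pool lay above every control pool, whereas the anti-Ly6G pools spread across both, anti-Ly6G 3 and 4 lying within the range of control and anti-Ly6G 1 and 2 above it. The recovered reads behind these values were 176 to 899 per pool, and 99.8% of the 25-base words of its transcripts occur in no other annotated gene.

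**Figure D1:**
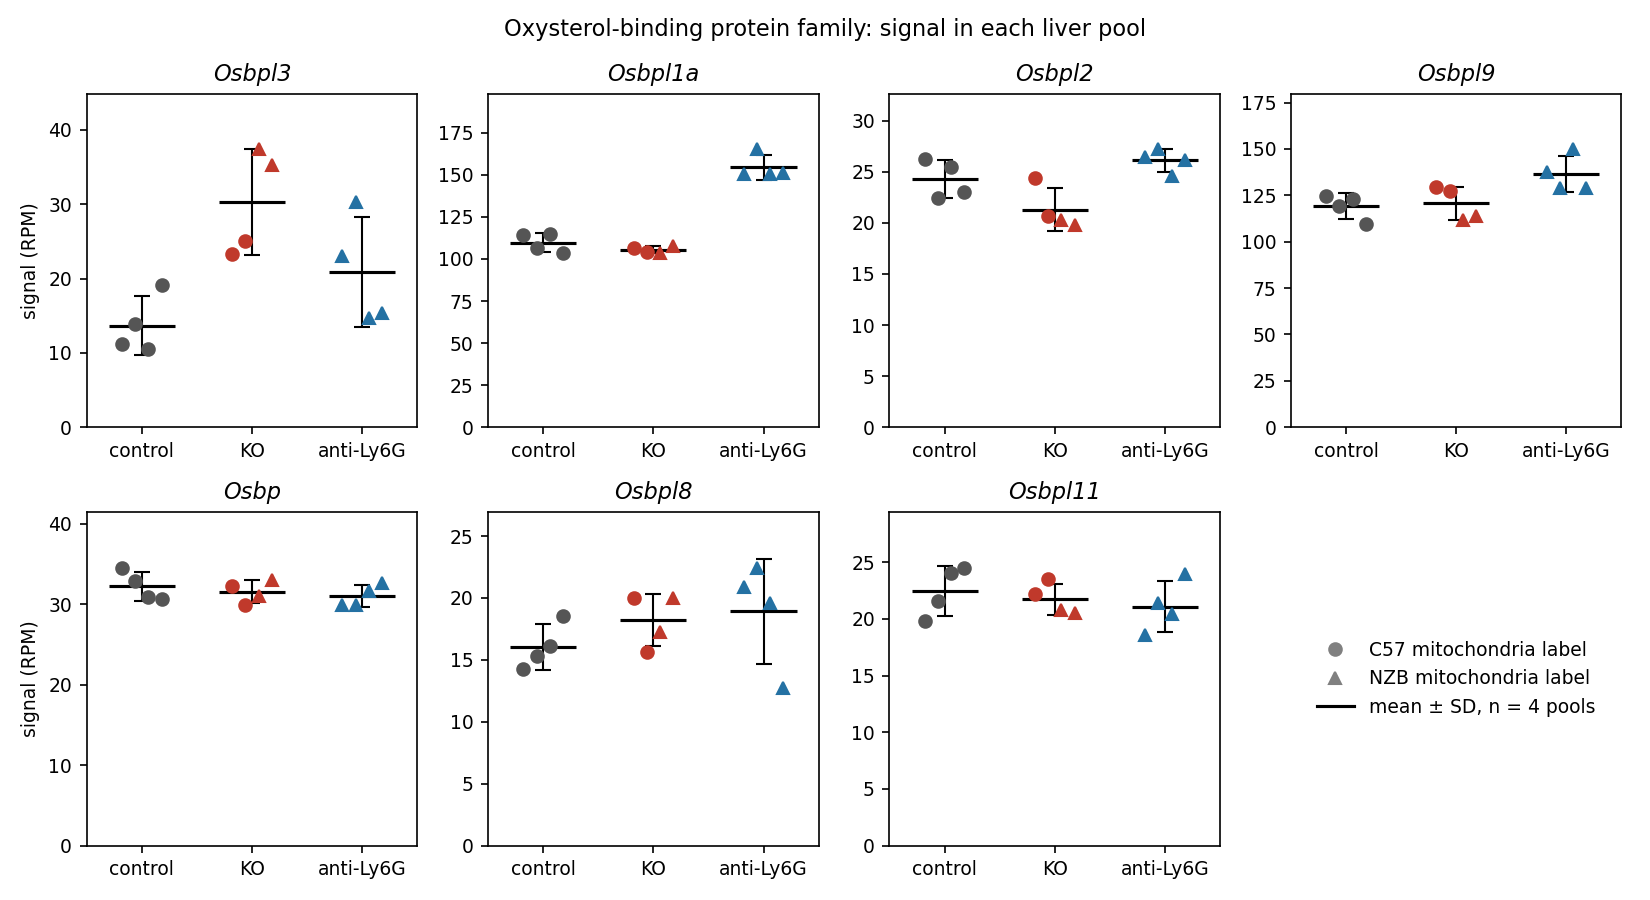
Signal (RPM, vertical axes from 0) of the 7 genes in each of the 12 liver pools, by group, with circles for the C57 and triangles for the NZB mitochondria label and black lines for mean ± SD (n = 4 pools). Osbpl3 was at 10.5 to 19.2 in control and 23.3 to 37.4 in KO, Osbpl1a was at 151 to 165 in anti-Ly6G against 103 to 115 in the other pools, and Osbp varied 1.16-fold between its lowest and highest pool.

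In means, Osbpl3 stood at 13.7 ± 3.95 in control and 30.3 ± 7.12 in KO, a log2 change of 1.13 ± 0.24 (SE), or 2.19-fold. This contrast chose the gene, and no test is given for it. Of all 11791 genes, 1.12% passed the threshold of an adjusted p of 0.05 in this contrast (limma-trend on log2(signal + 0.5), Benjamini-Hochberg adjustment over all genes), with 0.585% higher and 0.534% lower. Pools did not overlap for 12.4% of genes (5.73% higher, 6.62% lower). The change was 1.02 to 1.30 when any 1 library was left out. KO 3 and 4, with the NZB label, were at 37.4 and 35.3, while KO 1 and 2, which share the label of the controls, were at 23.3 and 25.1. With KO 1 and 2 alone the change from control was 0.84. The part of the label in this value was not tested.

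Osbpl3 averaged 20.9 ± 7.36 in anti-Ly6G, a log2 difference of 0.57 ± 0.24 (SE) from control that did not pass (limma, adjusted p = 0.0877, 95% interval 0.05 to 1.09, 4 pools against 4). The control pools are those by which the gene was chosen. It passed without control 4 (0.74, limma adjusted p = 0.0362) and without anti-Ly6G 3 (0.71, adjusted p = 0.0468), and with DESeq2 on the recovered reads (0.61, adjusted p = 0.0448). A fit with the mitochondria label as a further term gave -0.0099 (adjusted p = 0.991). Control and anti-Ly6G pools each carry a single label, so this term came only from the KO pools, which are pools of the choice. Whether the label acts alike in the other groups was not tested. KO exceeded anti-Ly6G by 0.56 ± 0.24 (SE; limma adjusted p = 0.0998, 95% interval 0.04 to 1.08), a difference that did not pass either and in which the KO pools are again those of the choice. It passed without anti-Ly6G 2 (0.76, adjusted p = 0.0338) and with the label as a covariate (0.85, adjusted p = 0.0424). With KO 3 and 4 alone, all pools then carrying the NZB label, it was 0.85 and did not pass (adjusted p = 0.0572). Since each of these comparisons reuses pools that chose Osbpl3, its adjusted p-values may be too low. They are given as a description only.

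Genes of other liver cell types are given here beside Osbpl3. The 11 listed monocyte and macrophage genes had a summed signal of 338 to 682 in the control pools, 489 to 803 in the KO pools and 165 to 229 after anti-Ly6G. Of the 11, 0 passed in KO against control, with a median log2 change of 0.46. In anti-Ly6G against control 6 fell and 0 rose (median -0.74). Over all genes, 1.12% passed in KO against control and 30.4% in anti-Ly6G against control (15.3% lower). Lyz2, the gene whose locus drives the Cre, was at 25.8 to 133 in the control pools, 143 to 246 in the KO pools and 39.1 to 71.6 after anti-Ly6G. Osbpl3 itself was at 14.7 to 30.3 in anti-Ly6G and at 10.5 to 19.2 in the control pools, which are those of its choice. The summed signal of the 9 stellate cell genes was 341 to 504 in control, 451 to 557 in KO and 255 to 401 after anti-Ly6G. Most of this sum is Dcn, which averaged 262, 283 and 233 and passed in neither group against control. Against control, 1 of them (Tagln) rose in KO (median of the list 0.51) and 5 fell in anti-Ly6G (median -0.55). The 7 sinusoidal endothelial genes summed to 205 to 234 in control, 136 to 231 in KO and 168 to 191 after anti-Ly6G. Of these, 0 passed in KO (median -0.32) and 3 fell in anti-Ly6G (median -0.33). The 6 Kupffer cell genes summed to 351 to 499, 356 to 512 and 266 to 424. Of these, 0 were called in KO (median -0.07) and 2 were lower in anti-Ly6G (median -0.15). The 33.3% called in anti-Ly6G, all lower, stands beside 30.4% of all genes in either direction and 15.3% lower. A count over 6 genes cannot tell this list from all genes. The part of these cells in the Osbpl3 level was not tested.

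The bases before the Osbpl3 start site are shown with those of Osbpl2, which differed between KO and anti-Ly6G. Sequences are from RefSeq (GRCm38.p6), read 5′ to 3′ in the direction of transcription and ending before the start sites of RefSeq and GENCODE. Capitals mark CCAAT on either strand, so that ATTGG is a match on the opposite strand. The Osbpl3 stretch is chr6:50456202-50456420, minus strand, and the Osbpl2 stretch is chr2:180119056-180119305, plus strand.
Osbpl3: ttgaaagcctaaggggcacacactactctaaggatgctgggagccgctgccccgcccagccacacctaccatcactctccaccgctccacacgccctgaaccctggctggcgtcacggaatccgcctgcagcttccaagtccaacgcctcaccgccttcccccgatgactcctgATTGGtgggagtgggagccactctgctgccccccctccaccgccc
Osbpl2: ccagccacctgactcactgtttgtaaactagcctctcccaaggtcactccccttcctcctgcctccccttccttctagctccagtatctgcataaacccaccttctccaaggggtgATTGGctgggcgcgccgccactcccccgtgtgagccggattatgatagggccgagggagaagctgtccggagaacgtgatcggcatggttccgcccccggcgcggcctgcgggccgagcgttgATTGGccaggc
Osbpl3 held 1 CCAAT match, starting 76 bases before the RefSeq start site, and Osbpl2 held 2, starting 134 and 11 bases before it. Windows from 250 bases before to 50 after a start site were searched on both strands for 5 motifs, any of which may overlap another. Of 6 members with a window, 5 held CCAAT (all but Osbpl8), beside 37.4% of all 32851 windows, and 6 held GGGCGG, beside 35.7%. CACGTG was found in 1 (Osbpl8), beside 7.15%, TGANTCA in 1 (Osbpl2), beside 7.81%, and TCACNCCAC in 0, beside 1.24%. A member was counted once for all its windows, of which Osbpl9 had more than 1, whereas the shares are over single windows. The counts and shares are thus in unlike units and were not read as enrichment. These matches are letters in a sequence and were not tied to any difference in signal.

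Osbpl1a was the member that differed most clearly between anti-Ly6G and the other groups. It encodes ORP1, whose long form sits on late endosomes with Rab7 and senses their cholesterol, and it lies on chromosome 18. Its signal was 114, 106, 115 and 104 in control 1 to 4, and 106, 104, 103 and 108 in KO 1 to 4. In anti-Ly6G 1 to 4 it was 151, 165, 151 and 151. All 4 anti-Ly6G pools lay above the 8 others, while control and KO overlapped. The means were 110 ± 5.67, 105 ± 2.02 and 154 ± 7.24. Osbpl1a rose in anti-Ly6G against control by 0.49 ± 0.06 (SE), or 1.41-fold (limma adjusted p = 9.99e-05, higher in 4 of 4 pools).

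Osbpl1a was the 1 member of 7 called in anti-Ly6G against control, a comparison in which 30.4% of all genes passed (15.1% higher, 15.3% lower). Leaving out 1 library gave 0.46 to 0.51 with adjusted p of 0.000208 to 0.000639. KO 3 and 4, which carry the NZB label of the anti-Ly6G pools, were at 103 and 108, and KO 1 and 2 were at 106 and 104. With that label as a further term the change was 0.49 (adjusted p = 0.0179). In KO against anti-Ly6G, Osbpl1a was lower by -0.55 ± 0.06 (SE; adjusted p = 5.07e-05), where 26.8% of all genes passed (13.6% higher, 13.1% lower). KO and control differed by -0.06 ± 0.06 (SE; adjusted p = 0.647, 95% interval -0.18 to 0.07). An annotated antisense gene, AC102055.1, shares 855 of the 7787 exonic bases of Osbpl1a, and 89.6% of the 25-base words of its transcripts are unique. Whether reads were counted by strand is not given in the sources used here, so reads of the antisense gene cannot be told apart from those of Osbpl1a in that stretch.

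**Figure D2:**
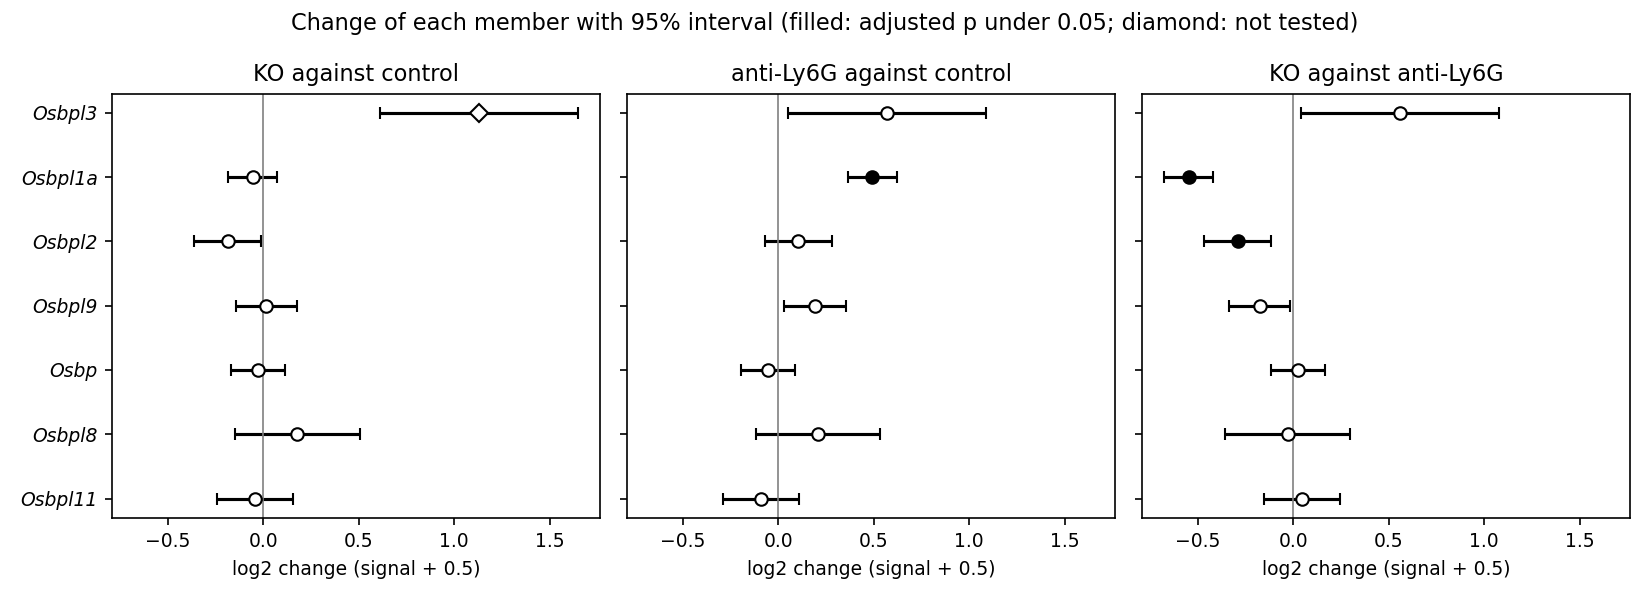
Log2 change of signal + 0.5 with its 95% interval for each gene in the 3 comparisons, with filled symbols for an adjusted p under 0.05 (limma) and a diamond for the contrast that chose Osbpl3 and was not tested. The called changes are Osbpl1a at 0.49 in anti-Ly6G against control and at -0.55 in KO against anti-Ly6G, and Osbpl2 at -0.29 in KO against anti-Ly6G.

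Osbpl2 encodes ORP2, a short member without the PI4P-binding domain of the longer ones, which delivers cholesterol to the plasma membrane and is found on lipid droplets. The gene lies on chromosome 2, 180119306 to 180162680 on the plus strand. Its signal was 26.2, 22.4, 25.4 and 23.1 in control 1 to 4, and 24.4, 20.7, 20.3 and 19.8 in KO 1 to 4. It was 26.4, 27.2, 24.6 and 26.2 in anti-Ly6G 1 to 4. All KO pools lay below all anti-Ly6G pools, KO 1 just below anti-Ly6G 3, and KO overlapped with control. Osbpl2 was lower in KO than in anti-Ly6G by -0.29 ± 0.08 (SE), a fall of 18.3% (limma adjusted p = 0.0183). The call was lost without KO 3 (-0.27, adjusted p = 0.0533), without KO 4 (-0.26, 0.0555) and without anti-Ly6G 2 (-0.27, 0.0515). KO 3 and 4 alone, with the label of the anti-Ly6G pools, gave -0.37, which also passed.

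Against control, Osbpl2 was at -0.19 ± 0.08 (SE) in KO (limma adjusted p = 0.240, 95% interval -0.36 to -0.01) and at 0.10 ± 0.08 in anti-Ly6G (adjusted p = 0.350, 95% interval -0.07 to 0.28). In the fit with the mitochondria label these were -0.11 and 0.26 (adjusted p = 0.608 and 0.230). Osbpl1a and Osbpl2 were the 2 members of 7 called in KO against anti-Ly6G, and they were also the 2 whose pools did not overlap there, beside 27.3% of all genes (13.8% higher, 13.5% lower). In KO against control, 0 of the 6 members other than Osbpl3 passed in limma, in edgeR or in DESeq2, beside 1.12, 1.30 and 4.89% of all genes. Of the 6, 1 (Osbpl2) had an unadjusted p under 0.05, as did 18.9% of all genes. The pools of all 6 overlapped in that comparison, while those of 12.4% of all genes did not. A count over 6 genes cannot tell these members from all genes.

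The members that act at the Golgi (Osbp, Osbpl9 and Osbpl11) had 0 calls in limma in the 3 comparisons. Of all genes, 1.12% passed in KO against control, 30.4% in anti-Ly6G against control and 26.8% in KO against anti-Ly6G. A count over 3 genes cannot tell this group from all genes. Osbp, the founding member, carries cholesterol from the endoplasmic reticulum to the trans-Golgi in exchange for PI4P. Its signal was 30.7 to 34.5 in control, 29.9 to 33.1 in KO and 29.9 to 32.6 in anti-Ly6G. Its means of 32.2 ± 1.82, 31.6 ± 1.39 and 31.0 ± 1.35 gave 95% intervals of -0.17 to 0.11 for KO and -0.20 to 0.09 for anti-Ly6G against control (log2). Its coefficient of variation within a group, 4.34 to 5.66%, was close to the counting error of its shallowest pool, 4.98% at 403 reads.

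Osbpl9 encodes ORP9, a partner of ORP11 at contacts of the endoplasmic reticulum with the trans-Golgi that exchanges phosphatidylserine for PI4P. Its signal was 125, 119, 123 and 110 in control 1 to 4, and 130, 127, 112 and 114 in KO 1 to 4. It was 138, 129, 150 and 129 in anti-Ly6G 1 to 4. All anti-Ly6G pools lay above all control pools and partly overlapped with KO. The difference from control, 0.19 ± 0.07 (SE, 95% interval 0.03 to 0.35), did not pass (limma adjusted p = 0.0660). In the fit with the mitochondria label it was 0.38 and did not pass either (adjusted p = 0.0622). Osbpl9 and Osbpl1a were the 2 of 7 members whose pools did not overlap in this comparison, beside 27.3% of all genes (14.2% higher, 13.1% lower).

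In KO, Osbpl9 differed from control by 0.015 ± 0.075 (SE; adjusted p = 0.937, 95% interval -0.15 to 0.18). KO against anti-Ly6G gave -0.18 ± 0.07 (SE; adjusted p = 0.0943), and -0.27 in the fit with the mitochondria label, which passed (adjusted p = 0.0366). Nrd1, on the other strand, shares 633 of the 7006 exonic bases of Osbpl9, whose transcripts are unique in 82.8% of their 25-base words. Nrd1 itself averaged 65.4 ± 4.43 in control and 68.8 ± 4.02 in anti-Ly6G (0.07, adjusted p = 0.448). Reads of the shared stretch could belong to either gene.

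Osbpl11 encodes ORP11, which pairs with ORP9 at the Golgi and late endosomes. Its signal was 19.8 to 24.5 in control, 20.5 to 23.5 in KO and 18.6 to 23.9 in anti-Ly6G, 3 ranges that overlap. The 95% intervals of its change were -0.24 to 0.16 in KO and -0.29 to 0.11 in anti-Ly6G against control (log2). Osbpl8 encodes ORP8, which moves phosphatidylserine to the plasma membrane from the endoplasmic reticulum, in whose membrane it is anchored. Its signal was 14.2 to 18.6 in control and averaged 18.2 ± 2.13 in KO, where its lowest pool was at 15.7 and the ranges overlapped. It was 20.9, 22.5, 19.6 and 12.8 in anti-Ly6G 1 to 4. Anti-Ly6G 1, 2 and 3 were above every control pool and anti-Ly6G 4, the shallowest library, was below them all (14.2 or more in control). The change in anti-Ly6G was 0.21 ± 0.15 (SE; limma adjusted p = 0.319, 95% interval -0.12 to 0.53), and it passed without anti-Ly6G 4 (0.38, adjusted p = 0.0201). In KO it was 0.18 ± 0.15 (adjusted p = 0.559, 95% interval -0.15 to 0.50).

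Of the 5 relatives outside the 7 genes, Osbpl5 and Osbpl7 were in the table and 3 (Osbp2, Osbpl6 and Osbpl10) are not analysed here. Osbpl5, which like ORP8 acts between endoplasmic reticulum and plasma membrane, averaged 2.62 ± 0.55 in the controls, 2.41 ± 0.72 in the KO pools and 2.36 ± 0.91 after anti-Ly6G. Osbpl7 was at 4.27 ± 1.33, 4.42 ± 0.37 and 3.09 ± 0.27. Against control, 0 of these 2 passed in limma, edgeR or DESeq2. Over all genes limma called 1.12% in KO and 30.4% in anti-Ly6G. Osbpl7 was at -0.37 in anti-Ly6G against control (limma adjusted p = 0.108). This was the 1 value against control with an unadjusted p under 0.05, and it passed without control 4 (-0.48, adjusted p = 0.0476). In KO against anti-Ly6G, limma and edgeR called 0 of the 2 and DESeq2 called 1, beside 26.8, 26.9 and 29.1% of all genes. Osbpl7 was there at 0.45 (limma adjusted p = 0.0596). A count over 2 genes cannot tell them from all genes.

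Levels of different genes were compared per exonic length. In control, Osbpl9 was highest at 17.0 ± 0.97 RPM per kb, followed by Osbpl1a at 14.1 ± 0.73, Osbp at 7.18 ± 0.41, Osbpl2 at 5.80 ± 0.43, Osbpl11 at 4.41 ± 0.43, Osbpl8 at 1.71 ± 0.20 and Osbpl3 at 1.51 ± 0.44. Neighbours in this order did not overlap between pools, except Osbpl8 (1.52 to 1.97) and Osbpl3 (1.16 to 2.12). In KO, Osbpl3 was at 3.35 ± 0.79 RPM per kb (2.58 to 4.15), above all values of Osbpl8 (1.67 to 2.13) and overlapping with Osbpl11 (4.03 to 4.61). In anti-Ly6G, Osbpl1a was at 19.8 ± 0.93 and Osbpl9 at 19.5 ± 1.41 RPM per kb, with overlapping ranges of 19.3 to 21.2 and 18.4 to 21.4. Of the summed signal per kb of the 7 genes, Osbpl3 held 2.95 ± 0.93% in the controls, 6.42 ± 1.63% in the KO pools and 3.78 ± 1.26% after anti-Ly6G, and Osbpl1a held 27.2 ± 0.65%, 25.8 ± 0.54% and 32.6 ± 1.02%. A rise in the share of 1 gene lowers those of the others, and the Osbpl3 share in KO follows in part from the choice of the gene. The lower share of Osbpl1a in KO is therefore not a fall of Osbpl1a itself, whose change from control was -0.06 (limma adjusted p = 0.647).

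**Figure D3:**
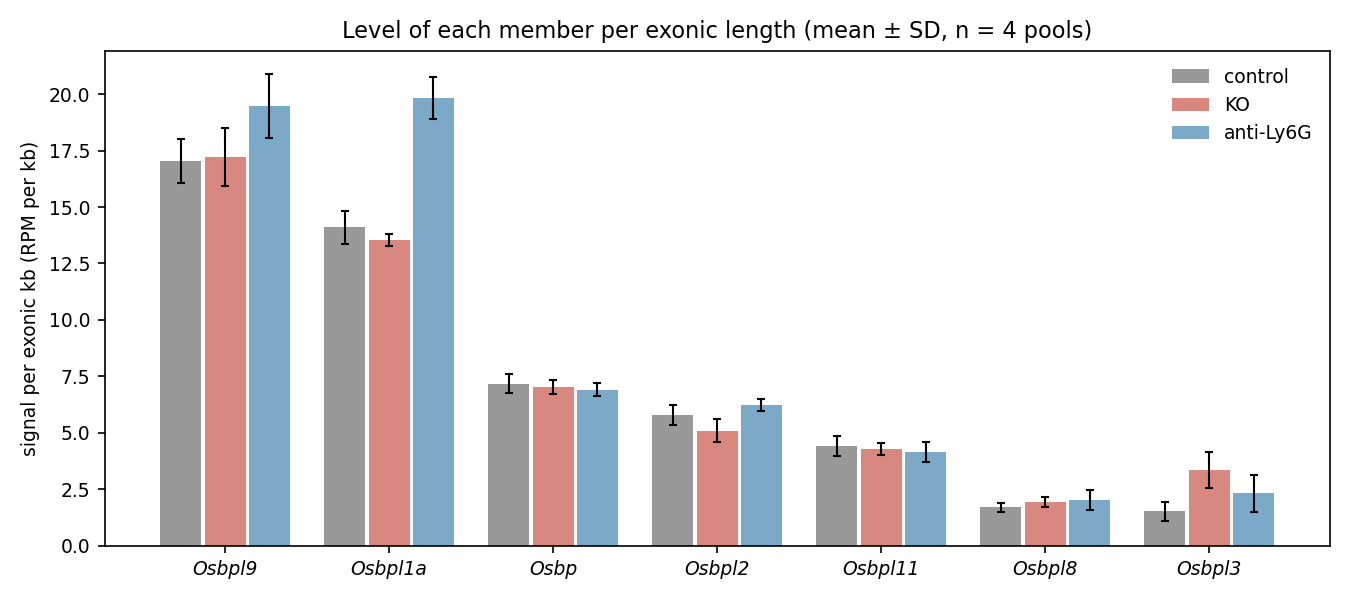
Mean signal per exonic kilobase (RPM per kb, axis from 0) of each gene in the 3 groups, in the order of the control level, with SD bars (n = 4 pools). Osbpl9 and Osbpl1a were the highest in each group, and Osbpl3 ranged from 1.51 in control to 3.35 in KO.

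Genes whose profile over the 12 pools was closest to a member were found by the root-mean-square difference between log2(signal + 0.5) profiles, each centred on its own mean. For Osbpl3, 4 of the 5 closest genes were Fam83a (0.268), Dhrs9, a retinol dehydrogenase (0.296), Spon2, a secreted matrix protein (0.306), and the noncoding RNA Airn (0.318). Osbpl3 itself varied by 0.580 about its mean, and no gene came within 0.15 or within 0.20 of it. Such counts depend on how much the gene itself varies. Fam83a and Airn had low signals, with control means of 1.74 and 1.13, so the added 0.5 weighs on their profiles. For Osbpl1a, which varied by 0.251, the 3 closest were Cox6b1, a subunit of cytochrome c oxidase (0.0736), Sepsecs, an enzyme of selenocysteine synthesis (0.0757), and Mtif3, a mitochondrial translation factor (0.0765), and 367 genes came within 0.15. For Osbpl2, which varied by 0.151, they were Mrpl11 (0.0598), Uqcrb (0.0606) and mt-Co2 (0.0675), and 1294 genes came within 0.15. All these profiles come from the same 12 libraries.

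**Figure D4:**
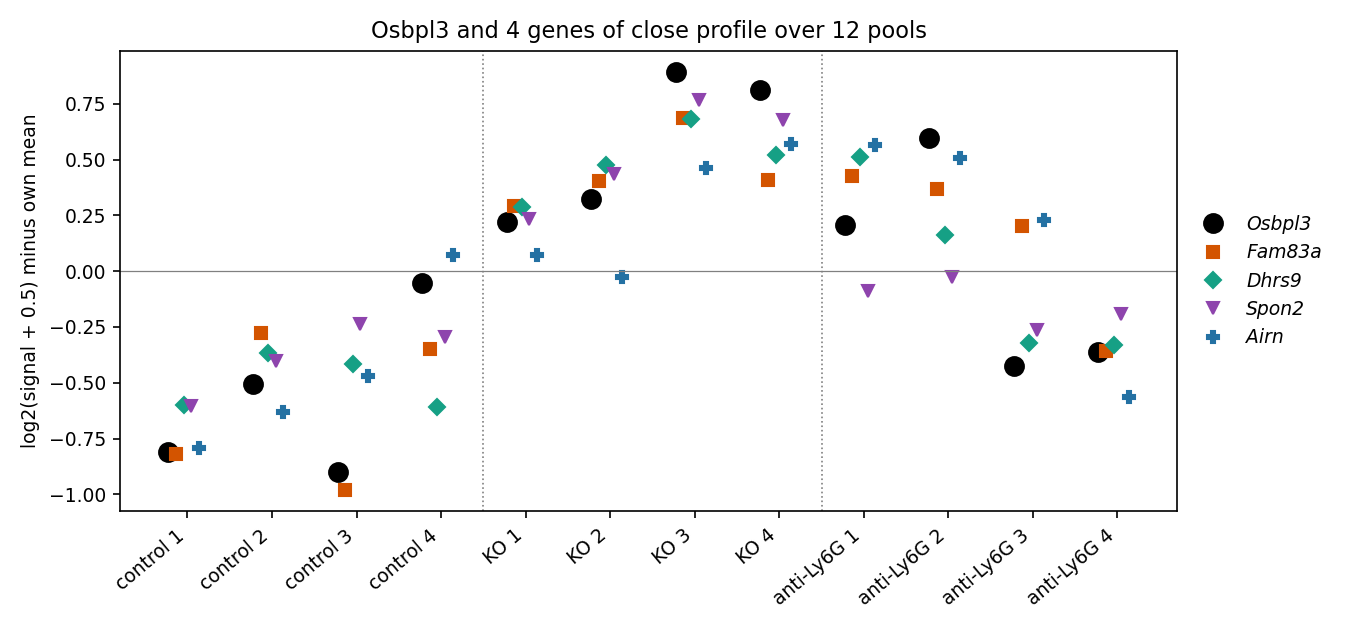
Log2(signal + 0.5) of Osbpl3 and 4 of the 5 genes of closest profile in each of the 12 pools, each centred on its own mean. Values are highest in KO 3 and KO 4 for Osbpl3 (0.89 and 0.81), and Spon2 is at -0.24 against -0.90 for Osbpl3 in control 3 and at -0.027 against 0.59 in anti-Ly6G 2.

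Genes that work with ORPs were read against the same background. In KO against control, limma called 0 of the 16 genes for ORP anchors and PI4P turnover, 0 of the 21 other lipid transfer genes and 0 of the 19 genes of oxysterol synthesis and sterol sensing. Their counts at an unadjusted p under 0.05 were 1, 3 and 4, beside 18.9% of all genes. In the same lists edgeR called 0 in each, beside 1.30% of all genes, and DESeq2 called 1, 0 and 3, beside 4.89%. Their median changes were 0.01, -0.04 and -0.05, beside a median of -0.00128 over all genes. The lowest p in the lists belonged to Pi4ka, a PI4P-producing kinase of the plasma membrane (-0.23, adjusted p = 0.0962), Stard5, a sterol carrier (-0.29, adjusted p = 0.151), and Nr1h3, which encodes the oxysterol receptor LXRα (0.21, adjusted p = 0.0842). Pi4ka and Nr1h3 passed with DESeq2 (adjusted p = 0.0332 and 0.0108), and Stard5 passed in limma without control 4 (-0.38, adjusted p = 0.0410).

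In anti-Ly6G against control, 1 of the 16 anchor and PI4P genes rose and 3 fell, 4 of the 21 lipid transfer genes rose and 3 fell, and 4 of the 19 oxysterol genes rose and 4 fell (3 and 2 without anti-Ly6G 2). The called shares of 25, 33.3 and 42.1% stand beside 30.4% of all genes, and the medians were 0.07, -0.03 and 0.15, beside -0.00220 over all genes. Pi4k2a, a PI4P-producing kinase of Golgi and endosomes, fell from 59.1 ± 7.63 to 35.9 ± 1.77 (-0.70, limma adjusted p = 0.000139). Mospd2, an endoplasmic reticulum anchor related to the VAPs, rose from 17.2 ± 1.76 to 24.5 ± 2.93 (0.50, adjusted p = 0.00343). Pi4ka fell by 0.28 on the log2 scale (adjusted p = 0.00720).

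Among lipid transfer genes, Stard4, a sterol carrier, rose from 20.6 ± 3.82 to 57.4 ± 16.5 (1.43, limma adjusted p = 0.000108). Plekha8, a glycolipid carrier that binds PI4P, rose (0.49, adjusted p = 0.00599), and Pitpnm1, a phosphatidylinositol carrier, fell (-0.60, adjusted p = 0.00449). Of the oxysterol genes, Nr1h3 rose from 69.4 ± 2.49 to 98.6 ± 2.64 (0.50, adjusted p = 5.89e-05). Cyp27a1, which makes 27-hydroxycholesterol, fell from 213 ± 19.8 to 153 ± 27.8 (-0.49, adjusted p = 0.00672). In the fit with the mitochondria label Pi4ka (-0.32), Pitpnm1 (-0.69), Plekha8 (0.16) and Cyp27a1 (-0.41) did not pass, while Pi4k2a, Mospd2, Stard4 and Nr1h3 still did. Control and anti-Ly6G pools differ in this label throughout, so that label and treatment cannot be told apart from these 8 pools alone. In the same comparison 4 of the 5 measured neutrophil genes fell, as did 15.3% of all genes. Their summed signal was 16.4 to 30.2 in control and 7.11 to 12.8 in anti-Ly6G. Ly6g, Elane and Mpo were among the 6 listed genes without a row. In KO against anti-Ly6G, 2 of the 16, 3 of the 21 and 2 of the 19 genes were higher and 1, 4 and 4 were lower, in all 18.8, 33.3 and 31.6% beside 26.8% of all genes. The count for the 16 anchor and PI4P genes was 1 higher and 0 lower without KO 3 or without anti-Ly6G 1, and 3 and 2 without anti-Ly6G 4. That for the 19 oxysterol genes was 1 and 2 without KO 3, and 0 and 2 without KO 4 or without anti-Ly6G 2.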

How the data were processed

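Liver RNA from 12 pools was sequenced (Illumina GAIIx). Per the labels' protocols, 2 animals were mixed in each pool and each genotype had 12 males, more than 4 pools of 2 hold. The authors deposited a normalized signal for 11791 genes, and the submitters' processing notes name edgeR, Bowtie2 2.0.6, RSEM 1.2.3, cutadapt 1.2.1 and GRCm38. No annotation, strand setting or entry rule is named. All values (100%) lay within 0.01 of whole multiples of 1 read per column, taken as reads. A stricter low-value test passed in 4 columns and not in 8. Error from counting alone is that of these reads.

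limma 3.58.1 (R 4.3.3, trend) was fitted to log2(signal + 0.5) by group over all 12 pools, with Benjamini-Hochberg adjustment over all genes and a threshold of 0.05. Fold changes on this scale understate low genes. A minimum mean of 1 in a group removed 0 genes. Alternatives were edgeR 4.0.16 and DESeq2 1.42.0 on the recovered reads, other pseudocounts, filters and scaling, single libraries left out, a replicate block and the mitochondria label, and the fits were tested on simulated counts. Only the KO pools carry both labels, so every fit with the label as a term estimated it from them alone. P-values measure the spread between pools, which may be technical. Pools of 1 group differed beyond counting noise, by a chi-square of 9.61 to 63.0 for each gene. Members and lists were chosen with earlier results of these data known. All 7 members are named, with up to 3 genes of lowest p per pathway list and comparison, and the 3 closest profiles of a called member (5 for Osbpl3), except some items that are not reported here. Positions and exonic lengths come from GENCODE vM21.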

Additional observations from a re-analysis of the deposited data

Results flagged for a closer look

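The signal of Osbpl1a in anti-Ly6G 2 was 165, apart from the other 3 pools of its group, which were all at 151. The gap to the nearest pool was 0.942 of the range of the group, above Dixon's critical value for 4 samples. Of 21 groups examined (7 genes in 3 groups) it was the 1 that stood out, and chance marks about 1 in 20. Without this pool Osbpl1a was still higher in anti-Ly6G than in control (0.46, limma adjusted p = 0.000436).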

How the results depend on the processing

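Over all settings run for the 7 genes, 366 values were counted as the same, 3 lost a call, 7 gained one and 16 changed sign, all 16 of uncalled changes. The same meant the same direction and side of the threshold, except for the 19 values of Osbpl3 in KO against control. That contrast has no test, and its values kept direction and moved by less than the mean SD within the groups. The cause of the lost or gained calls and changed signs was not tested. Osbpl1a kept its calls in every setting run, at 0.46 to 0.51 in anti-Ly6G against control and -0.56 to -0.51 in KO against anti-Ly6G. With 1 library left out, the KO change from control ran from -0.052 to 0.0046 for Osbp, from -0.025 to 0.050 for Osbpl9, from -0.25 to 0.020 for Osbpl5 and from -0.030 to 0.24 for Osbpl7. KO against anti-Ly6G ran from -0.20 to 0.061 for Osbpl8 and from -0.010 to 0.11 for Osbpl11. With the mitochondria label as a term, Osbpl11 was at 0.027 in KO and 0.051 in anti-Ly6G against control and at -0.024 in KO against anti-Ly6G, where Osbpl8 was at 0.0050, and pools of 1 label gave the same values for the KO comparisons. Osbpl3 was then at -0.0099 in anti-Ly6G against control, with the label term taken from the KO pools alone. Pools of 1 label cannot give this comparison.

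Over all genes, KO against control called 132, but 577 with DESeq2, 20 with the replicate block, 79 with the label as a term (25 higher and 54 lower, against 69 and 63), 58 with KO 1 and 2 alone, and 3 (without control 2) to 319 (without control 4) with 1 library left out. Anti-Ly6G against control called 3580, and 973 with the label. KO against anti-Ly6G called 3157, and 2041 with KO 3 and 4 alone. Of the 7 genes, 1 was called in anti-Ly6G against control, beside 30.4% of all genes, and 2 with DESeq2, beside 32.1%. With 1 library left out, 1 to 2 were called. In KO against anti-Ly6G 2 were called, 4 with the label and 1 to 2 with 1 library left out. The share of all genes there was 26.8% in the fit by group. The calls added by DESeq2 and by the label include Osbpl3, whose control and KO pools are those of its choice. A count over 7 genes cannot tell this group from all genes. Same-numbered pools correlated at -0.209 to 0.172 in their deviations, so the numbers were not taken to pair the pools, and the replicate block changed no call of the 7 genes (Osbpl1a 0.49, adjusted p = 0.000684, in anti-Ly6G against control). In anti-Ly6G against control the label left 1 higher and 1 lower of the anchor and PI4P genes, 1 and 0 of the lipid transfer genes and 3 and 0 of the oxysterol genes. Depth limits Osbpl5, with 26 reads in its lowest pool.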
